A study of Homo sapiens with 3 samples.

Results

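The OAS family was described from its 4 human genes, OAS1, OAS2, OAS3 and OASL, picked by gene symbol from the 22613 genes listed in each library. RNA sequencing compared LNCaP-abl cells, an androgen-independent prostate cancer line derived from LNCaP and grown without phenol red in charcoal-stripped serum, 72 h after lipid transfection of siRNAs. The siE2F1 group (1 library) received a pool of siRNAs against the transcription factor E2F1, and the control group (2 libraries, numbered 0 and 1 in the labels) received control siRNAs; all 3 libraries share the line, its passage range, the serum and the transfection reagent. Nothing in the labels tells separate cultures from repeat libraries of 1 culture, so the p-values reflect library-to-library spread that may be purely technical. With 1 library against 2, an exact permutation test cannot go below p = 0.333, and the single siE2F1 library has no replicate.

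The OAS enzymes bind double-stranded RNA, a sign of viral infection, and then join ATP into short 2-5A chains, oligoadenylates that signal for viral and cellular RNA to be cut. Their genes are classical targets of interferon signalling, through the factor ISGF3, of which STAT2 and IRF9 are subunits and which binds repeated GAAA-rich elements in promoters. OAS1, OAS3 and OAS2 lie side by side on chromosome 12, and OASL lies apart on the same chromosome arm. The proteins differ in how many OAS units they carry, and the longest coding sequences in GENCODE release 29 follow that: 414 codons for OAS1, 726 for OAS2 and 1087 for OAS3, which carry 1, 2 and 3 units. OASL, with 514 codons, carries 1 unit followed by ubiquitin-like domains. OASL makes no 2-5A and instead boosts signalling by the RNA sensor RIG-I and holds back the DNA sensor cGAS.

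The promoters of OAS1 and OAS3 are shown because they are the 2 of the 4 members with an entry in the promoter table used; those of OASL and OAS2 were not analysed here. The sequences come from RefSeq (GRCh38.p14, plus strand), run from 250 bases before the annotated start to 50 after it, and hold in capitals each match to GNAA and GAAA with 2 bases between, a loosened core of the interferon-stimulated response element.

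OAS1, chr12:112906712-112907011: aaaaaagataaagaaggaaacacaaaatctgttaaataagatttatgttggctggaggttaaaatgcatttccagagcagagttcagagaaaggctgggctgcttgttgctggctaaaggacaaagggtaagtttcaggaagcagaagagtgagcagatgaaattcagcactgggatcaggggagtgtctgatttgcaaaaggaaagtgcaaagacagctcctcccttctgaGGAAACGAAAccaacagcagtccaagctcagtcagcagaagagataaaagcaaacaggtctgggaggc

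OAS3, chr12:112938224-112938523: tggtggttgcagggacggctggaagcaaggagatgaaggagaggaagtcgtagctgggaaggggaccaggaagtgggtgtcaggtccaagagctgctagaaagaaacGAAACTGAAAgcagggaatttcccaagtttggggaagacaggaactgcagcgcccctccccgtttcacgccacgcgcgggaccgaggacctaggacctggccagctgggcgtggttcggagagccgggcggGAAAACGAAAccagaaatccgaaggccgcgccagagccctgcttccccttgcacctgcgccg

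The strict core, 2 copies of GAAA with any 2 bases between, was searched on both strands. It occurred 2 times in the OAS3 window, from 143 to 134 and from 12 to 3 bases before the start, and 0 times in the OAS1 window. Of all 35116 promoter windows of this length, 3.57% held at least 1 such match and 0.259% at least 2. The loosened core, chosen after the OAS1 window had been read, occurred in 8.03% of all windows. In OAS1 it matched once, from 18 to 9 bases before the start. An E2F motif, TTTNNCGC on either strand, occurred 2 times in the OAS3 window and 0 times in the OAS1 window, against 6.89% of all windows with at least 1. The OAS3 match nearest the start, from 16 to 9 bases before it, overlaps the response element match there by several bases. A STAT motif, TTCNNNGAA, occurred once in OAS1 and 0 times in OAS3, against 7.66% of all windows. These are matches of letters and not sites shown to be bound.

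Transcript of the silenced gene checked the label. E2F1 stood at 1.68 FPKM in siE2F1 cells, against 10.6 FPKM in each control (limma adjusted p = 0.0311, and 0.159 with no minimum FPKM). FPKM scales fragments to transcript length and library size; the depth behind it is unknown. The luminal prostate markers KRT8, KRT18, EPCAM, HOXB13, FOLH1 and STEAP2 were all present, at 42.8 to 338.9 FPKM over the 3 libraries. Of 14 leukocyte markers 7 had values here, none above 5.67 FPKM, and their summed level was 18.5 FPKM in siE2F1, against 17.2 and 17.4 FPKM in control 0 and control 1. Of the 5 tested 4 lay above both controls, as did 43.7% of all genes tested, and 1 lay below. CD8A, of cytotoxic T cells, was at 3.57 FPKM in siE2F1, against 2.52 and 2.87 FPKM, and KLRD1, CD68 and LYZ also lay above both controls. PTPRC, which defines leukocytes, was at 0.423 FPKM in siE2F1, against 0.842 and 1.15 FPKM in the controls. The 2 of 5 stromal and endothelial markers with values summed to 1.44 FPKM in siE2F1, against 1.71 and 1.64 FPKM. The part of these markers in the OAS results was not tested.

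All 4 OAS genes were higher in siE2F1 than in both controls, but by very different amounts. OASL rose, OAS1 was higher by less and passed the test in 1 setting, OAS2 was too low to be tested, and OAS3 had the smallest difference. Summed over the family, the level was 45.8 FPKM in siE2F1, against 5.09 FPKM in control 0 and 5.17 FPKM in control 1. Without OASL the sum was 11.3 FPKM in siE2F1, against 3.82 and 3.78 FPKM, ratios of 2.96 and 2.98. In bulk RNA, more cells that express a gene and more RNA per cell cannot be told apart.

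OASL, the member without enzyme activity, was at 34.5 FPKM in siE2F1, against 1.27 FPKM in control 0 and 1.39 FPKM in control 1. The controls differed from each other by 0.07 in log2(FPKM + 1), the scale of every log2 fold change here, on which the change of low genes is understated. On that scale OASL rose by 3.93 (95% interval 3.68 to 4.18, standard error 0.0737, limma adjusted p = 0.0191 over the 14401 genes averaging 1 FPKM or more). The call was lost when every listed gene was fitted with no minimum FPKM (adjusted p = 0.103). In FPKM itself siE2F1 was 27.1 times control 0 and 24.8 times control 1. By level, OASL ranked 2359 of 22613 genes in siE2F1, against 13636 and 13397 in the controls. Among the 13928 genes tested that are not small RNA genes, OASL had the largest positive log2 fold change. Among all 14401 genes tested, small RNA genes included, it ranked 36.

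OAS1, the shortest of the enzymes, was at 6.65 FPKM in siE2F1, against 0.993 FPKM in control 0 and 1.40 FPKM in control 1. The siE2F1 value lay above both controls, and the controls themselves were 0.27 log2 units apart, farther than for any other member. The log2 fold change was 1.81 (95% interval 1.26 to 2.35, standard error 0.16) and did not pass over all genes tested (limma adjusted p = 0.111, unadjusted p = 0.00244). With small RNA genes left out of the fit it passed (adjusted p = 0.0272). By level OAS1 ranked 8442 in siE2F1, against 14284 and 13374 in the controls.

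OAS2, whose 2 units act as a membrane-associated enzyme, was the lowest member in every library, at 1.34 FPKM in siE2F1, against 0.186 FPKM in control 0 and 0.122 FPKM in control 1. Its mean of 0.548 FPKM fell under the 1 FPKM minimum, so it entered no test in the main fit. The difference was 1.02 on the log2 scale, 0.98 against control 0 and 1.06 against control 1, with the controls 0.08 apart. In FPKM siE2F1 was 7.19 and 10.96 times the controls, ratios that rest on very low control values. Tested with no filter on mean FPKM, OAS2 had an adjusted p of 0.188.

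OAS3, the longest enzyme and the one with the highest affinity for long double-stranded RNA, was at 3.31 FPKM in siE2F1, against 2.64 FPKM in control 0 and 2.26 FPKM in control 1. The siE2F1 library was the highest of the 3. The log2 fold change was 0.32, with a 95% interval of -0.05 to 0.70, and did not pass (limma adjusted p = 0.203). It did not pass without small RNA genes either (adjusted p = 0.135). The upper bound of 0.70 lies below the lower bound of 1.26 for OAS1, although the difference between the genes was not tested.

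**Figure D1:**
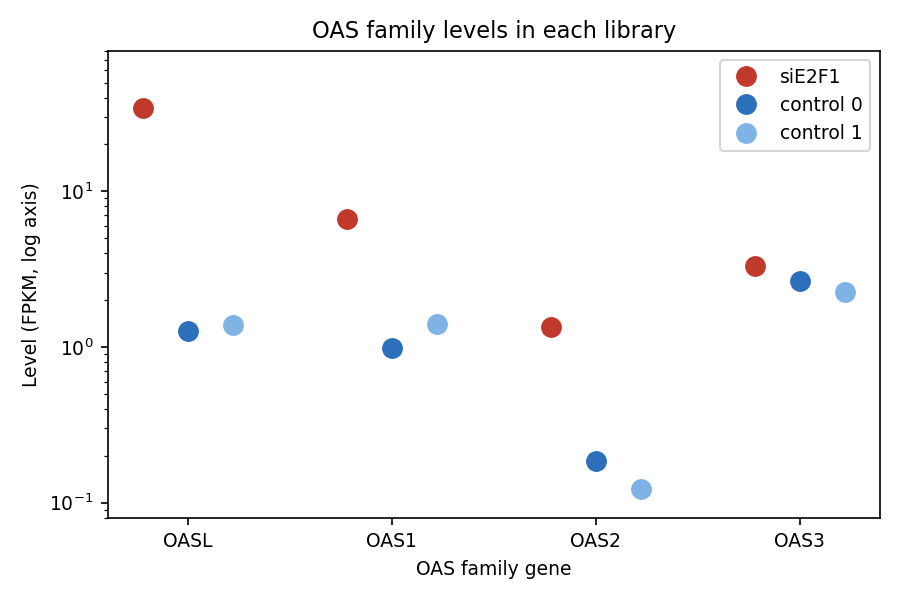
FPKM of the 4 OAS genes (log axis) in the siE2F1 library and in control 0 and control 1, 1 point per library. OASL reached 34.5 FPKM in siE2F1, against 1.27 and 1.39 FPKM in the controls, while the 3 points of OAS3 stood between 2.26 and 3.31 FPKM.

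The order of levels within the family differed between the groups. In siE2F1 OASL was highest, then OAS1, OAS3 and OAS2. In both controls OAS3 was highest and OAS2 lowest, and OAS1 and OASL between them changed places from one control to the other, so these neighbours did not differ beyond the spread of the controls. OASL made up 75.3% of the summed family FPKM in siE2F1, against 25.0% and 26.9% in the controls. OAS3 made up 7.24% in siE2F1, against 51.9% and 43.7%. OAS1 took 14.5% in siE2F1, against 19.5% and 27.1%, although its own FPKM was higher there.

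Over all genes tested, 28.4% had an unadjusted p under 0.05 in either direction, the share beside which each such count here is to be read. Set against all genes tested, 1 of the 3 tested members passed as higher, where limma called 0.312% of genes higher. Without small RNA genes 2 of 3 passed as higher and none as lower, where 4.17% of genes were called higher and 6.36% lower. OASL and OAS1 lay at least 1 log2 unit above both controls, as did 0.743% of all genes tested, with OAS2 just short of it. All 3 tested members, and OAS2, lay above both controls, as did 43.7% of all genes tested, a share that leaves out genes as low as OAS2. OASL and OAS1 had control means of 1.33 and 1.20 FPKM, so neither needed its siE2F1 value to reach the minimum.

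**Figure D2:**
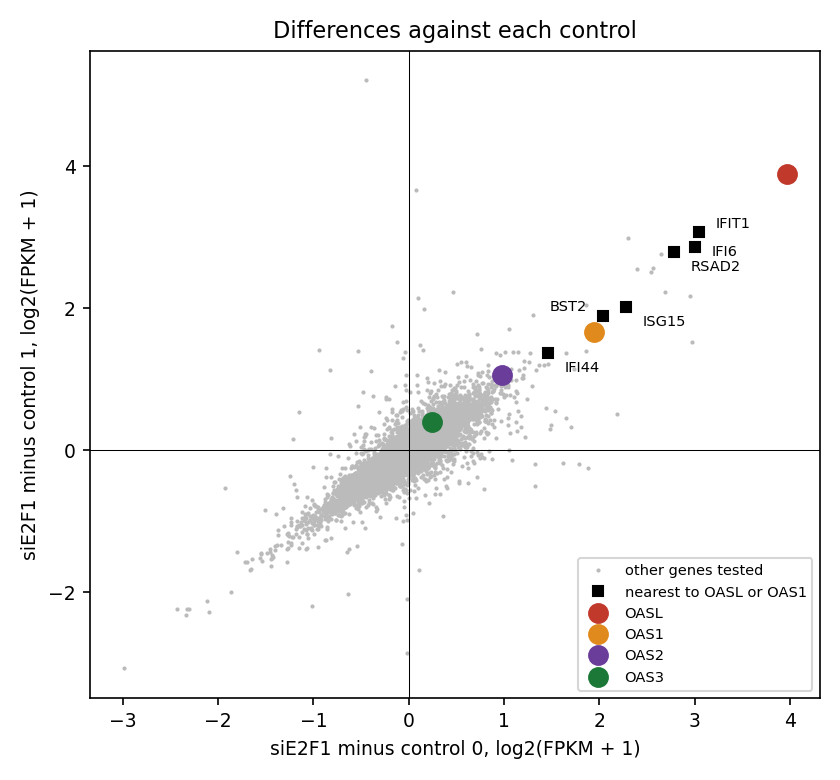
Log2(FPKM + 1) differences of siE2F1 minus control 0 (horizontal axis) and minus control 1 (vertical axis) for the 13928 tested genes other than small RNA genes (grey), the 4 OAS genes (coloured) and the genes nearest to OASL and OAS1 (black squares). OASL stood at 3.97 and 3.89, at the far upper right, and OAS3 at 0.24 and 0.40, inside the cloud of other genes.

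The genes nearest to each member were taken by the distance between their pairs of differences, siE2F1 minus each control. There were 12211 candidate genes (12212 for OAS2), and both differences rest on the same 1 siE2F1 library. The 3 nearest to OASL were IFIT1 (distance 1.24 log2 units), which binds foreign RNA, IFI6 (1.41), a membrane protein, and RSAD2 (1.62), the antiviral enzyme viperin. OASL had the largest difference of all candidates, so its nearest genes could only be genes with smaller differences. The 3 nearest to OAS1 were BST2 (0.246), which tethers budding virus, ISG15 (0.487), a ubiquitin-like modifier, and IFI44 (0.564). BST2 was at 5.28 FPKM in siE2F1, against 0.526 and 0.688 FPKM in the controls, and IFI44 at 2.58 FPKM, against 0.296 and 0.391 FPKM. Candidates had to average 1 FPKM over the 3 libraries, which BST2 and IFI44 did only through siE2F1. Genes this low in the controls could be candidates only if they were higher in siE2F1. The 3 nearest to OAS2 were AQP3 (0.0596), a water and glycerol channel, RPL21 (0.104), a ribosomal protein gene with near-identical copies that could share reads, and S100P (0.105), a calcium-binding protein, after unnamed loci, 2 of which were nearer, had been set aside. Among the 3 nearest to OAS3 were BTBD8 (0.00833) and LSS (0.0115), lanosterol synthase, which lay in the crowded region of small differences.

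Upstream of the OAS genes, 4 of the 8 interferon genes listed had values, all close to 0. The other genes of that list had no values here, so their levels are unknown. IFNB1, interferon beta, was at 0.0656 FPKM in siE2F1, listed at 0 in control 0 and at 0.0486 FPKM in control 1. IFNL1, a type III interferon, was at 0.495 FPKM in siE2F1, against 0.127 and 0.0836 FPKM in the controls. IFNL2 and IFNL3, near-identical copies of each other, were at 0.171 and 0.174 FPKM in siE2F1, listed at 0 in control 0 and at 0.0555 and 0.0708 FPKM in control 1. All 4 were above both controls, as were 43.7% of all genes tested, a share over genes averaging 1 FPKM or more. The share among genes this low is not given here. None reached the 1 FPKM minimum, and none was tested in the main fit. Values this low depend on the 0.1 FPKM subtracted from the deposited scale.

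Of the receptors and kinases that relay interferon, 0 of 9 members passed (limma, 2 at an unadjusted p under 0.05, where 28.4% of all genes were, median log2 fold change 0.09) where the median of all genes tested was 0.01. IFNGR1 and IFNGR2, the receptor chains for interferon gamma, had the largest changes at 0.41 and 0.26. Of the 9 tested ISGF3 and IRF factors 0 passed (5 at an unadjusted p under 0.05, 1 of them lower) and the median was 0.13. The lower one, IRF3, a factor that induces interferon, was at 28.3 FPKM in siE2F1, against 32.8 and 33.3 FPKM. IRF9, the DNA-binding subunit of ISGF3, was at 11.2 FPKM in siE2F1, against 4.29 and 4.13 FPKM in the controls. Its log2 fold change of 1.23 passed without small RNA genes (limma adjusted p = 0.0221). Of the 9 tested factors 2 passed there, both as higher, where 4.17% of all genes were called higher. STAT2, another subunit, was at 22.4 FPKM in siE2F1, against 16.0 and 13.2 FPKM. IRF7, itself an interferon-induced gene, was at 7.30 FPKM in siE2F1, between the controls at 6.89 and 8.07 FPKM.

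Genes that work beside the OAS enzymes were read by role. In the list of 9 tested double-stranded RNA sensors and adaptors, 0 passed (3 at an unadjusted p under 0.05) and the median was 0.24. Of the 9, 6 lay above both controls, as did 43.7% of all genes tested. DDX58, which encodes RIG-I, was at 5.25 FPKM in siE2F1, against 2.51 and 2.27 FPKM in the controls. IFIH1, which encodes the sensor MDA5, was at 5.62 FPKM, against 3.17 and 3.36 FPKM. DDX58 and IFIH1 were the 2 members that passed without small RNA genes, where 4.17% of all genes were called higher. The third gene at an unadjusted p under 0.05, PRKRA, which activates the kinase PKR, was lower, at 19.6 FPKM in siE2F1, against 23.8 and 23.5 FPKM. EIF2AK2, which encodes PKR, which halts translation on binding the same kind of RNA, was at 11.5 FPKM in siE2F1, against 8.97 and 9.78 FPKM (log2 fold change 0.27). The 2 tested genes of 2-5A turnover lay below both controls, as did 5711 of all 14401 genes tested. PDE12, a phosphodiesterase that degrades 2-5A, was at 12.7 FPKM in siE2F1, against 15.8 and 15.4 FPKM. ABCE1, a ribosome recycling factor that also holds back the 2-5A pathway, was at 45.9 FPKM, against 51.2 and 48.8 FPKM. Of these 2 tested members 0 passed (limma, 1 at an unadjusted p under 0.05).

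The relatives of the OAS fold come next. Of 5 tested members of the nucleotidyltransferase-fold list, which includes STING, 0 passed (1 at an unadjusted p under 0.05) and the median was -0.15. TMEM173, which encodes STING, the partner of cGAS, was at 0.8 FPKM in siE2F1, against 1.20 and 1.36 FPKM, and ILF2, a nuclear RNA-binding protein, at 159.3 FPKM, against 194.8 and 204.5 FPKM. Among ubiquitin-like modifiers and their enzymes, ISG15 was at 91.8 FPKM in siE2F1, against 18.1 and 21.9 FPKM (log2 fold change 2.15), and UBA7, which activates ISG15, at 3.71 FPKM, against 2.29 and 1.83 FPKM. Of the 4 tested there 0 passed (3 at an unadjusted p under 0.05). Without small RNA genes ISG15 alone passed, where 4.17% of all genes were called higher. The third gene at an unadjusted p under 0.05, USP18, which removes ISG15 from proteins, was lower. It was at 11.2 FPKM in siE2F1, against 13.3 FPKM in each control. In the list of other interferon-induced genes, 4 of 22 tested passed, all higher (IFIT1, IFI6, RSAD2 and IFIT2), where 0.312% of all genes passed as higher. Without small RNA genes 12 passed as higher, where 4.17% of all genes did. Among them BST2, IFI44 and IFI27 had control means of 0.607, 0.344 and 0.765 FPKM. They met the 1 FPKM minimum only through siE2F1, so they could enter these counts only as higher. Of the 22, 20 lay above both controls, as did 43.7% of all genes tested, and the median was 0.51. These lists were chosen with earlier results of these data known, so their counts are descriptions.

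**Figure D3:**
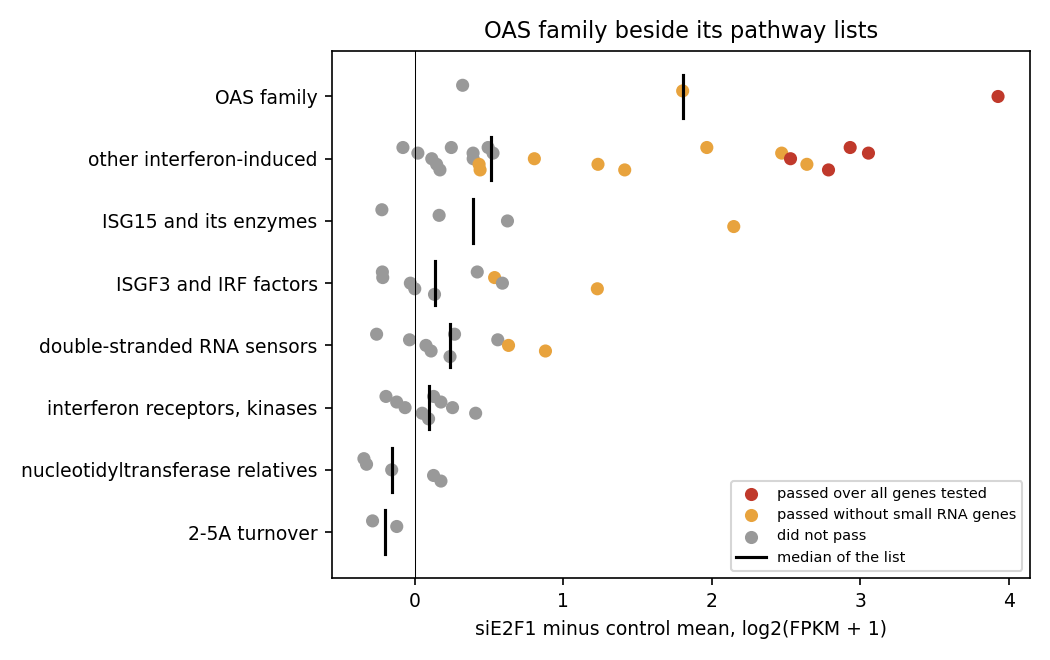
Log2(FPKM + 1) difference of siE2F1 minus the control mean for each tested gene of 8 lists, 1 point per gene, red where limma passed it over all genes tested, orange where it passed only without small RNA genes and grey where it did not pass; black bars are list medians. OASL at 3.93 lay beyond each of the other listed genes, and OAS3 at 0.32 lay below the 0.51 median of the other interferon-induced genes.

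Promoter letters and change were set side by side over the tested genes with a RefSeq window. Of the 29 with 2 or more strict response element matches, as in OAS3, 79.3% lay above both controls, 44.8% were called higher without small RNA genes and the median log2 fold change was 0.25. Of the 208 with 1 match, 53.4% lay above both, 4.33% were called higher, near the 4.17% of all genes, and the median was 0.05. Of the 8591 with none, as in OAS1, 42.8% lay above both, 3.60% were called higher and the median was 0.002. OAS3 ranked 14 of the 29 by its difference, near their middle. Of these 29 genes, 12 belong to the lists used here.

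Neighbours on the chromosome were read next. The 5 protein-coding genes on either side of the OAS1-OAS3-OAS2 cluster and of OASL, in RefSeq order, gave 20 genes, of which 15 were tested and 0 passed (limma, 2 at an unadjusted p under 0.05). Next to the cluster, the 6 tested neighbours had log2 fold changes of -0.13 to 0.11. Around OASL, the 9 tested neighbours ranged from -0.57 for RNF34, a ubiquitin ligase, to 0.41 for CAMKK2, a calcium-dependent kinase and androgen-responsive gene. CAMKK2 was at 19.0 FPKM in siE2F1, against 14.3 and 13.8 FPKM, and RNF34 at 18.7 FPKM, against 28.6 and 27.9 FPKM. Without small RNA genes these 2 of the 15 tested neighbours passed, where 4.17% of all genes were called higher and 6.36% lower. GENCODE release 29 places an antisense gene, AC004551.1, across OAS1, OAS3 and OAS2, and the kit used for the libraries keeps no strand, so its reads cannot be told from theirs.

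**Figure D4:**
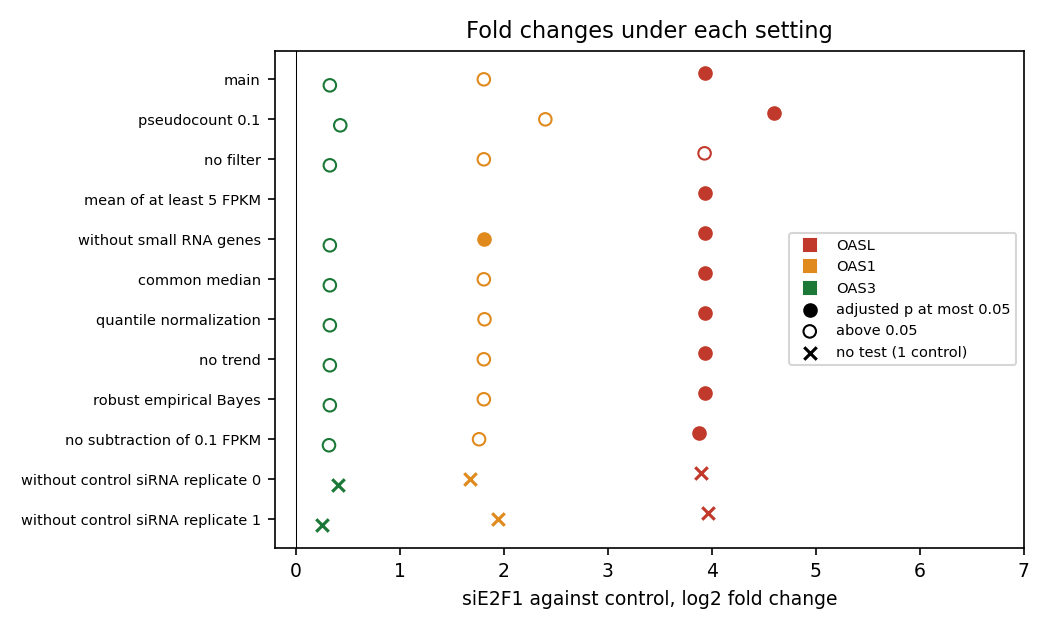
Log2 fold change of OASL, OAS1 and OAS3, siE2F1 against control, under the main setting and each alternative; filled points passed limma at an adjusted p of 0.05, open points did not, and crosses have 1 control and no test. OASL ranged from 3.87 to 4.60 and OAS3 from 0.24 to 0.42, the 0.24 from a setting with 1 control and no test. Where tested, OAS3 ranged from 0.32 to 0.42, below OASL under every setting shown that tested both.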

How the data were processed

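Each library was deposited as log2 FPKM per gene with no header, and the tools listed in the submitters' processing notes are TopHat2 2.0.4 and Cufflinks 2.0.2, with build hg19; which annotation they used is not stated there. The lowest deposited log2 value equals log2 of 0.1, so FPKM was taken as 2 to that value less 0.1. Sorted values of the 3 libraries differ by at most 0.0653 log2 units, a pattern that quantile normalization gives, which would hide a shift common to most genes; the step itself is not stated. At most 0.199% of genes had identical values in a pair of libraries, so the 3 were kept as separate samples. Groups came from the sample titles.

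Values were tested as log2(FPKM + 1), siE2F1 against control, two-sided, with limma 3.58.1 in R 4.3.3 (empirical Bayes with a mean-variance trend, Benjamini-Hochberg over all 14401 genes averaging 1 FPKM or more, threshold 0.05). On simulated data the share of false calls was often above that threshold, so the calls are to be read as less firm than their adjusted p. The simulation left out small RNA genes and gave the spread no trend with level. It therefore does not give the share of false calls in these data. The 2 controls give 1 residual degree of freedom, and the siE2F1 library is assumed to vary like them. No list was tested. Members, lists and the choice of settings were made with earlier results of these data known. The named genes are the members, E2F1, the genes called in each list (up to 4) or otherwise its 2 largest changes, genes with a direct role in the pathway, the 3 genes of nearest pattern, and chromosomal neighbours; IFNB1, IFNL3, IRF3, PRKRA, USP18 and the leukocyte markers were added after their values were seen. Unnamed loci were set aside from the nearest genes after 2 had come out nearest to OAS2, and older symbols of the interferon lambda genes were dropped from list counts once the names in the data were known. Some genes that this rule names are not reported here. Promoters and gene order are from RefSeq (GRCh38.p14), with 2 of 4 members matched.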

Additional observations from a re-analysis of the deposited data

How the results depend on the processing

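OASL was higher under each of the 11 alternatives (log2 fold change 3.87 to 4.60) and passed under all that had a test except when every listed gene was fitted (3.93, adjusted p = 0.103), where limma called 0 members, 0 genes of the pathway lists and 0 genes in all, with 4862 at an unadjusted p under 0.05. Over these tests the OASL adjusted p lay between 0.0037 and 0.103. A common median and quantile normalization could move little, because the sorted values of the libraries were already nearly the same (OASL 3.93 under each). OAS1 (1.67 to 2.40) was called only without small RNA genes (1.81, adjusted p = 0.0272; over all tests 0.0272 to 0.188), a setting that gave 2 members, 17 pathway genes and 1467 genes in all. OAS3 (0.24 to 0.42) passed under none (adjusted p 0.135 to 0.285). With a pseudocount of 0.1, 18 genes were called and 1 pathway gene, and E2F1 lost its call there (-2.59, adjusted p = 0.0601) and with no filter (-2.12, adjusted p = 0.159). Robust empirical Bayes called 142 genes, 8 in the pathway lists, against 60 and 4 in the main fit. A minimum of 5 FPKM kept OASL alone, so 1 member lay at least 1 log2 unit beyond both controls. With a control mean of 1.33 FPKM, OASL met that minimum only through its siE2F1 value, so its pass there adds no support. Leaving out either control moved OASL to 3.89 or 3.97, OAS1 to 1.67 or 1.94 and OAS3 to 0.40 or 0.24, with no test; the gap between the controls alone sets that shift, so it is no sign of stability. The cause of these lost or added calls was not tested. No paired analysis was possible because siE2F1 has 1 library. Depth is unknown, so the precision of low values such as OAS2 cannot be given.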
